A study of Homo sapiens with 6 samples.

Results

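Semaphorins, plexins, neuropilins, netrins, UNC5 receptors, SLIT ligands and ROBO receptors are the classical axon guidance ligands and receptors. All protein-coding genes whose symbol places them in semaphorin classes 3 to 7, plexins A to D, neuropilins, netrins 1 to 5, UNC5A to UNC5D, SLIT1 to SLIT3 or ROBO1 to ROBO4 were taken. GENCODE release 44 has 46 such genes, of which 43 were found among the 28563 genes of the expression table, and PLXNA4, SEMA5B and UNC5D were not analysed here. The 43 genes comprise 19 semaphorins, 8 plexins, 2 neuropilins, 4 netrins, 3 UNC5 receptors, 3 SLITs and 4 ROBOs.

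These proteins were named for steering growing axons and are also used outside the nervous system, where they act on cell migration, adhesion and vessel growth. Most secreted class 3 semaphorins bind a neuropilin, which has little signalling activity of its own and passes the signal to a plexin of class A, whereas membrane-bound semaphorins mostly bind plexins directly. The cytoplasmic part of a plexin acts on small GTPases, among them those of the Ras family. Netrins bind DCC, neogenin and UNC5 receptors, and SLITs bind ROBO receptors.

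Polydatin (PD), a plant compound that is a glucoside of resveratrol, was given to cells labelled HepG2, an established line from a human liver cancer, and the question was which transcripts changed. Plates were randomly divided into 3 that received PD and 3 that received the solvent DMSO alone, and RNA was taken after 24 h. The labels give the dose of PD as 336 µM, which differs from the dose that the paper states. All plates were of 1 cell line and 1 time point, no genetic change was made in either group, and p-values measure the spread between plates of this line.

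Values are FPKM, the fragments counted on a gene per kilobase of its length and scaled to the fragments of its library, so levels can be compared between genes. Each DMSO library held 16763318 to 17274927 fragments, and each PD library held between 16308476 and 18071632. Of the markers of hepatocytes and HepG2 cells, APOA1, SERPINA1, TF, FGA and HNF4A were at most 0.172 FPKM in every library, whereas CPS1 was at 221.6 to 228.5 FPKM in DMSO and 106.0 to 111.2 FPKM in PD. RBP4 was at 0.323 to 0.479 FPKM in DMSO and 1.06 to 1.73 FPKM in PD. Most of these liver markers thus went against the label, and the cells are called by their label only. Of 4 epithelial markers analysed, 3 reached 1 FPKM, and the 4 summed to 95.4 to 101 FPKM in DMSO and 114 to 120 FPKM in PD. KRT8 and KRT18 made up most of this sum. KRT8 rose from 50.1 to 68.9 FPKM on average (limma adjusted p = 0.00011), and KRT18 had 46.5 and 47.7 FPKM. EPCAM had means of 1.17 FPKM in DMSO and 1.03 FPKM in PD, and CDH1 was at most 0.145 FPKM and lower in every PD library. Of 4 fibroblast markers analysed, COL1A1 (means of 3.46 and 3.45 FPKM) and PDGFRB (0.898 and 1.08 FPKM) reached 1 FPKM, and COL3A1 and DCN did not. The 5 endothelial markers were all under 1 FPKM, with sums of 0.0548 to 0.107 FPKM in DMSO and 0.0535 to 0.138 FPKM in PD. The 5 analysed neuronal markers were each under 1 FPKM, and their summed level was higher in PD (1.39 to 1.83 FPKM) than in DMSO (0.838 to 1.08 FPKM), although SYT1 and RBFOX3 were lower in every PD library. The part of that shift in the values of the guidance genes was not tested. In bulk RNA, fewer cells of a type and less RNA per cell cannot be told apart.

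Genes averaging 0.5 FPKM or more over the 6 libraries (14400 genes) were compared between PD and DMSO by limma on the log2(FPKM + 1) scale, with Benjamini-Hochberg adjustment. A differentially expressed gene (DEG) had to change at least 2-fold on that scale, with an adjusted p no higher than 0.05. Of the 43 guidance genes, 22 reached this minimum and 21 did not. UNC5B, SEMA3F and PLXNA3 were upregulated DEGs, so that 3 of 22 were called where 2.04% of all tested genes were. No guidance gene was a downregulated DEG, where 1.57% of all tested genes were, and none fell 2-fold on this scale at an unadjusted p under 0.05 either. At the adjusted p alone, 10 genes were higher in PD (31.9% of all tested genes) and 3 were lower (26.2% of all tested genes). SEMA7A, SEMA4F, PLXNA2, SEMA4B, PLXND1, PLXNA1 and NTN1 made up the rest of the higher genes, and NTN4, NRP1 and SEMA5A were the lower ones. The share that was higher (45.5% of the 22) lay above the share over all genes and the share that was lower (13.6%) lay below it, but the gene set was not tested as a whole. The median log2 fold change was 0.15 over the 22 genes and 0.01 over all tested genes.

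**Figure D1:**
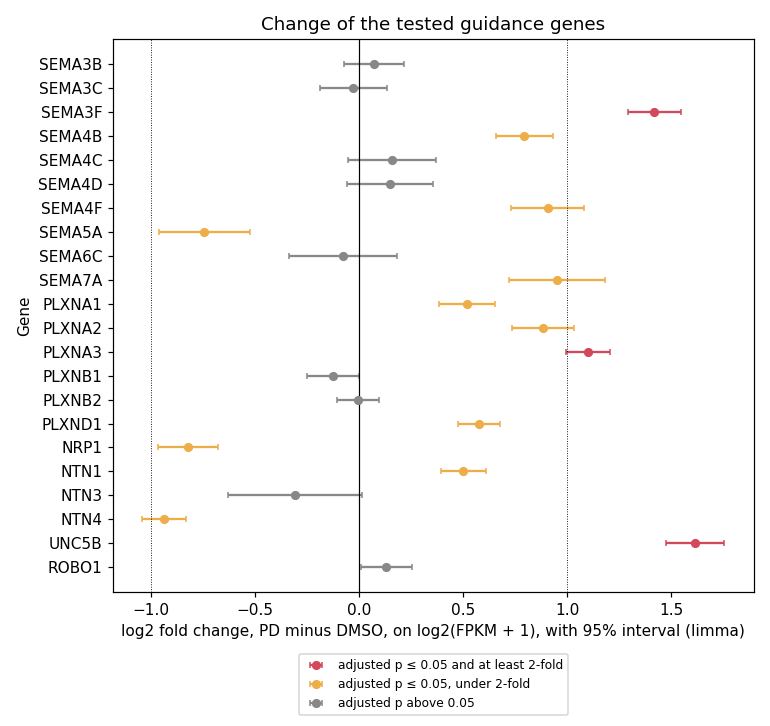
Log2 fold change of the 22 tested guidance genes on the log2(FPKM + 1) scale (horizontal axis), PD minus DMSO, with 95% intervals from limma. Positive values are higher in PD and dotted lines mark 2-fold. UNC5B (1.62), SEMA3F (1.42) and PLXNA3 (1.10) lie beyond 2-fold, and NTN4 (-0.94) is the lowest.

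The pseudocount of 1 compresses the change of genes at a few FPKM or less. With a pseudocount of 0.1, 6 guidance genes were upregulated DEGs (4.85% of all tested genes) and 3 were downregulated DEGs (3.82%). Whole fragments could be worked back from the FPKM, and limma voom on these fragments tested 32 guidance genes, of which 9 were upregulated DEGs (6.71% of all genes tested by voom) and 4 were downregulated DEGs (4.79%). Without the 2-fold threshold, voom called 15 higher and 6 lower, or 46.9% and 18.8% of the 32. Of all genes tested by voom, 34.3% were called higher and 28.2% lower. Both alternatives added SEMA7A, SEMA4F and PLXNA2 to the upregulated DEGs and NTN4, NRP1 and SEMA5A to the downregulated DEGs. SEMA7A reached the minimum only through its PD libraries and SEMA5A only through its DMSO libraries, so that their place among the tested genes depended on the difference itself.

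The sequences just upstream of transcription starts are shown for 4 of the genes that changed, SEMA3F and PLXNA3 as higher and NTN4 and SEMA5A as lower genes. Of the 43 genes, 36 matched a RefSeq promoter (GRCh38.p14), and the called genes UNC5B, NTN1 and NRP1 were not among them. Where a gene had several RefSeq starts, only the most upstream one was used, and SEMA3F had 3 starts and NTN4 had 2. Motif shares over several genes used the full 250 bases before that start. The windows printed here hold up to 250 bases before the start, with bases inside the annotated gene removed, and read 5′ to 3′ on the gene's strand. They are chr3:50154808-50155044 (plus strand) for SEMA3F, chrX:154458031-154458280 (plus strand) for PLXNA3, chr12:95791190-95791405 (minus strand) for NTN4 and chr5:9546076-9546325 (minus strand) for SEMA5A. Capitals mark the GC box GGGCGG and the CCAAT box, searched on both strands, and GC boxes that share a base were both counted.
SEMA3F: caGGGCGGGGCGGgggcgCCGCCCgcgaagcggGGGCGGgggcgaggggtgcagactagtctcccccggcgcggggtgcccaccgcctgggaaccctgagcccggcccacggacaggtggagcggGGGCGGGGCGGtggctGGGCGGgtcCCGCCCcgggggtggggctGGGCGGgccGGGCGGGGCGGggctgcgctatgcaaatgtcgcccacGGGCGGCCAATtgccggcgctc
PLXNA3: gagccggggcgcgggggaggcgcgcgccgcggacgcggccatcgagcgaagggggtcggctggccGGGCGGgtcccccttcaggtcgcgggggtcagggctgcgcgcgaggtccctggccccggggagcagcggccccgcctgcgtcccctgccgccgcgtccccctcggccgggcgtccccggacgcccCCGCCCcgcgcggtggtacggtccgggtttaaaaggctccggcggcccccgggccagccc
NTN4: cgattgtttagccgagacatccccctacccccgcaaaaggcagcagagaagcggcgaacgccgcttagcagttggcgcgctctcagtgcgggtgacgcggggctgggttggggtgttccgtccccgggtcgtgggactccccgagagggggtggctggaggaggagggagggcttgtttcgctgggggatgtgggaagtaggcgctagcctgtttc
SEMA5A: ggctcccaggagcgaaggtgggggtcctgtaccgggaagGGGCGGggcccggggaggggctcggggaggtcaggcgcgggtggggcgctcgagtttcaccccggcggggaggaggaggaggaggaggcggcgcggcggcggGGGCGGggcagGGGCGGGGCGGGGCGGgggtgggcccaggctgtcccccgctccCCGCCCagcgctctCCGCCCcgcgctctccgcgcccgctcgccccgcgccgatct
SEMA3F held 12 GC boxes and 1 CCAAT box, PLXNA3 held 2 GC boxes, SEMA5A held 7, and NTN4 held neither motif. A GC box occurred in 8 of 8 matched genes that were higher in PD and in 1 of the 2 matched genes that were lower, while 42.2% of 27305 RefSeq promoters and 68.7% of those of tested protein-coding genes had one. Over the 36 matched guidance genes the share was 69.4%, close to that of the tested genes. Of the 18 matched guidance genes that were tested for change, 14 (77.8%) had one. A CCAAT box was found in 10 of the 36 windows, in 33.0% of all promoters and in 35.6% of those of tested protein-coding genes. TATAAA and the AP-1 site TGAGTCA were in none of the 36, against 11.2% and 4.15% of all promoters and 5.06% and 2.31% of those of tested protein-coding genes. The E-box CACGTG was in 3 (6.46% of all promoters), and the cAMP response element TGACGTCA was in those of SEMA3B and SEMA4C (1.75%). These matches describe letters in the windows and are not binding sites.

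SEMA3B and SEMA3F, secreted class 3 semaphorins that both lie on the short arm of chromosome 3, gave different calls: SEMA3F rose and SEMA3B did not pass the test. SEMA3F (ENSG00000001617, chr3:50155045-50189075 in GENCODE on hg38) had 5.27, 5.76 and 6.03 FPKM in the 3 DMSO libraries and 16.3, 17.3 and 17.0 FPKM in the 3 PD libraries. All PD libraries were far above all DMSO libraries, and the group means were 5.69 ± 0.388 and 16.9 ± 0.498 FPKM (SD, n = 3 each). On the log2 scale the change was 1.42 (SE, the standard error, 0.05, limma adjusted p = 3.2e-06). SEMA3B (ENSG00000012171, chr3:50267558-50277546), the most abundant semaphorin, had 35.3, 34.7 and 40.0 FPKM in DMSO and 36.7, 40.6 and 38.5 FPKM in PD. Its groups overlapped, and its log2 fold change of 0.07 (95% interval -0.07 to 0.22, adjusted p = 0.35 from limma) changed sign, to -0.01, when libraries were scaled by their upper quartile. The genes are 78.5 kb apart on the same strand. The FPKM ratio of SEMA3F to SEMA3B, a ratio chosen after the values were seen, was 0.155 ± 0.009 in DMSO and 0.437 ± 0.011 in PD (SD, n = 3 each, exact two-sided permutation test p = 0.10, the smallest that 3 against 3 can give). SEMA3F overlaps the exons of SEMA3F-AS1 on the opposite strand by 110 bases, and SEMA3F-AS1 was at no more than 0.216 FPKM.

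The semaphorins together had 61.7 ± 3.90 FPKM in DMSO and 81.4 ± 2.42 FPKM in PD (SD, n = 3 each). SEMA3B made up 59.4% of this sum in DMSO and 47.4% in PD, and SEMA3F 9.23% and 20.7%. SEMA3C, another secreted class 3 member, stood at 7.15 FPKM in DMSO and 7.01 FPKM in PD on average, with a log2 fold change of -0.03 (95% interval -0.19 to 0.13) that turned positive without DMSO replicate 1 or without PD replicate 3.

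**Figure D2:**
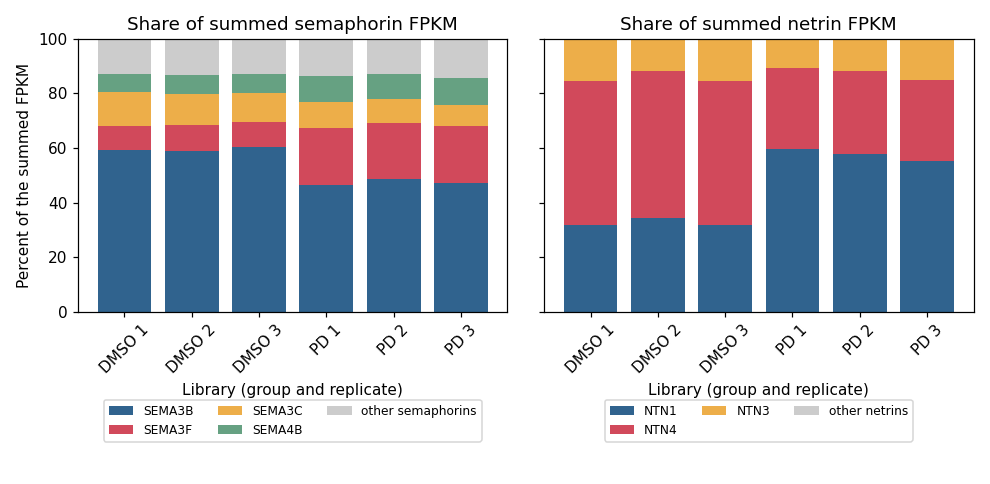
Percent of the summed FPKM (vertical axis) taken by single semaphorins and single netrins in each of the 6 libraries. SEMA3F takes a larger share in the 3 PD libraries (20.6% to 20.8%) than in the DMSO libraries (8.81% to 9.75%), and NTN1 and NTN4 exchange places as the most abundant netrin.

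Of the membrane-bound semaphorins of class 4, SEMA4B and SEMA4F rose. SEMA4B had 3.86, 4.09 and 4.43 FPKM in DMSO and 7.57, 7.90 and 8.19 FPKM in PD, without overlap, and a log2 fold change of 0.79 (SE 0.06, limma adjusted p = 3.3e-05). SEMA4F had 1.15, 1.10 and 1.14 FPKM in DMSO and 2.68, 3.22 and 3.08 FPKM in PD. Its log2 fold change was 0.91 at a pseudocount of 1, 1.33 at a pseudocount of 0.1 and 1.40 in voom, and the ratio of mean FPKM was 2.65. SEMA4D, the ligand of PLXNB1, had means of 0.772 FPKM in DMSO and 0.965 FPKM in PD and did not pass the test (log2 fold change 0.15, adjusted p = 0.18, limma), although all PD libraries were above all DMSO libraries and voom gave 0.32 with an adjusted p of 0.018. SEMA4C, a ligand of PLXNB2, had 1.99 and 2.34 FPKM, with overlapping groups and an adjusted p of 0.17 (limma).

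SEMA7A is held in the membrane by a lipid anchor and binds PLXNC1 and integrins. It had 0.403, 0.471 and 0.597 FPKM in DMSO and 1.79, 1.71 and 2.15 FPKM in PD, from 30 to 44 and 129 to 151 fragments. Its groups were well apart, and the ratio of mean FPKM was 3.84. The log2 fold change was 0.95 (SE 0.10, limma adjusted p = 0.00015), just under 2-fold at a pseudocount of 1, and it passed 2-fold without DMSO replicate 3, the highest DMSO library. Voom gave 1.93 (95% interval 1.51 to 2.35).

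SEMA5A (ENSG00000112902, chr5:9035033-9546075), a transmembrane semaphorin with thrombospondin repeats that can bind PLXNB3, was the semaphorin that fell. It had 1.35, 1.45 and 1.64 FPKM in DMSO and 0.581, 0.443 and 0.426 FPKM in PD, and every PD library was below every DMSO library. The log2 fold change was -0.74 (SE 0.09, limma adjusted p = 0.0004), -1.44 at a pseudocount of 0.1 and -1.61 in voom, and mean FPKM was 3.06-fold lower in PD. Its exons overlap an antisense lncRNA by 436 bases, and the kit did not mark strand, so fragments there cannot be told apart. SEMA6C had 0.777 FPKM in DMSO and 0.686 FPKM in PD, with overlapping groups and an adjusted p of 0.58 (limma).

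**Figure D3:**
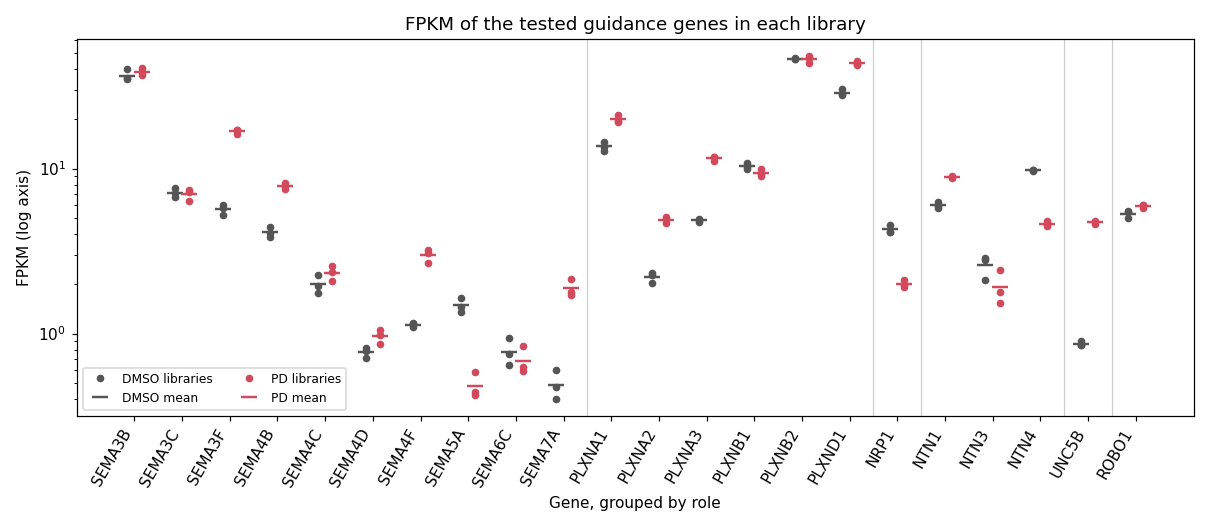
FPKM of the 22 tested guidance genes (log axis) in each library, DMSO in grey and PD in red, with bars at the group means. PLXNB2 and SEMA3B are high in both groups and overlap between them, while UNC5B has the widest gap between its DMSO and PD libraries and NTN4, NRP1 and SEMA5A lie lower in PD.

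Class A plexins, the receptors through which neuropilin-bound semaphorins signal, rose in PD for the 3 members analysed. PLXNA3 (ENSG00000130827, chrX:154458281-154477779) had 4.77, 4.91 and 4.93 FPKM in DMSO and 11.1, 11.8 and 11.8 FPKM in PD. The groups were widely separated, with means of 4.87 ± 0.085 and 11.6 ± 0.420 FPKM (SD, n = 3 each) and a log2 fold change of 1.10 (SE 0.05, limma adjusted p = 3.7e-06). PLXNA3 shares 5 exonic bases with LAGE3 on the opposite strand, which was at 47.0 to 54.0 FPKM in DMSO and 87.9 to 95.6 FPKM in PD. PLXNA2 had 2.01, 2.33 and 2.25 FPKM in DMSO and 4.66, 4.94 and 5.10 FPKM in PD, and its log2 fold change was 0.88 (SE 0.06, limma adjusted p = 3.0e-05) and 1.16 in voom. PLXNA1, the most abundant of the class, had 12.8, 13.5 and 14.6 FPKM in DMSO and 19.3, 21.2 and 19.5 FPKM in PD, with a log2 fold change of 0.52 (SE 0.06, limma adjusted p = 0.00021). For each of these plexins, every PD library was above every DMSO library.

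PLXND1, a plexin best known from blood vessels that can bind SEMA3E without a neuropilin, had 27.8, 28.3 and 30.5 FPKM in DMSO and 42.7, 43.0 and 44.8 FPKM in PD. This was a 1.51-fold ratio of means and a log2 fold change of 0.58 (SE 0.04, limma adjusted p = 3.5e-05). SEMA3E itself had at most 2 fragments in any library. PLXNA1 and PLXND1 are 2.52 Mb apart on chromosome 3, which carries 8 of the 43 genes.

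Class B plexins, receptors of class 4 semaphorins, did not pass the test. PLXNB2 (ENSG00000196576, chr22:50274979-50307646), the most abundant of all guidance genes, had 46.2, 46.0 and 46.9 FPKM in DMSO and 43.4, 47.0 and 48.2 FPKM in PD. The groups overlapped, and the log2 fold change was -0.01 (95% interval -0.11 to 0.10, limma adjusted p = 0.93), with a positive sign without DMSO replicate 3 or without PD replicate 1. PLXNB1 had means of 10.3 FPKM in DMSO and 9.40 FPKM in PD, with a log2 fold change of -0.13 and an adjusted p of 0.081 (limma). It passed the threshold, as lower, in voom (-0.14, adjusted p = 0.034), under upper quartile scaling (-0.20, adjusted p = 0.022) and without PD replicate 2 (-0.17, adjusted p = 0.042). The FPKM ratio of PLXNA3 to PLXNB2, chosen after the values were seen, was 0.105 ± 0.002 in DMSO and 0.251 ± 0.005 in PD (SD, n = 3 each, exact permutation p = 0.10). Summed plexin FPKM was 107 ± 3.23 in DMSO and 136 ± 4.68 in PD, and the share of PLXNB2 was 43.4% and 34.0%.

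Of the neuropilins, the ligand-binding partners of the class A plexins, NRP1 fell and NRP2 was not called. NRP1 (ENSG00000099250, chr10:33177492-33336262), which also binds VEGF, had 4.14, 4.15 and 4.56 FPKM in DMSO and 2.10, 1.97 and 1.91 FPKM in PD. All PD libraries were below all DMSO libraries, the mean was 2.15-fold lower, and the log2 fold change was -0.82 (SE 0.06, limma adjusted p = 3.7e-05) and -1.10 in voom. An antisense lncRNA overlaps 561 of its exonic bases, with the same limit on strand. NRP2, the preferred neuropilin of SEMA3F, was under the minimum of 0.5 FPKM on average, with 0.437, 0.438 and 0.459 FPKM in DMSO and 0.474, 0.452 and 0.525 FPKM in PD. Voom did not call NRP2, with a log2 fold change of 0.12 (95% interval -0.17 to 0.40). The ratio of NRP2 to NRP1, chosen after the values were seen, was 0.104 ± 0.003 in DMSO and 0.243 ± 0.027 in PD (SD, n = 3 each, exact permutation p = 0.10).

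PLXNC1, the receptor of SEMA7A, was also under the minimum. It had 47, 40 and 32 fragments in DMSO and 12, 12 and 27 in PD, so that the groups did not overlap but PD replicate 3 stood close to DMSO. Voom called it a downregulated DEG with a log2 fold change of -1.33 (95% interval -2.00 to -0.66, adjusted p = 0.0012), and leaving out single libraries gave values from -1.73 to -1.10. Exons of CEP83 and of lncRNAs overlap it on the opposite strand. The FPKM ratio of SEMA7A to PLXNC1, chosen after the values were seen, was 2.19 ± 0.870 in DMSO and 21.4 ± 7.45 in PD (SD, n = 3 each, exact permutation p = 0.10), and the spread was widest in PD.

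UNC5B, a netrin receptor that can promote cell death when it has no ligand, had the largest change of the 22 tested genes on this scale. UNC5B (ENSG00000107731, chr10:71212570-71302864) had 0.846, 0.898 and 0.854 FPKM in DMSO and 4.59, 4.72 and 4.84 FPKM in PD. The DMSO values rest on 100 to 103 fragments and the PD values on 540 to 568, and the libraries of each group lay close together. The means were 0.866 ± 0.028 and 4.72 ± 0.123 FPKM (SD, n = 3 each), a 5.45-fold ratio. The log2 fold change was 1.62 (SE 0.06, limma adjusted p = 3.2e-06) at a pseudocount of 1, 2.32 at a pseudocount of 0.1 and 2.44 in voom (95% interval 2.21 to 2.67). No annotated exon of another gene overlaps UNC5B. UNC5A had at most 9 fragments in a library and UNC5C at most 4.

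Of the netrins, NTN1 rose and NTN4 fell. NTN1 (ENSG00000065320, chr17:9021510-9244000), the secreted netrin that binds DCC, neogenin and UNC5 receptors, had 5.80, 6.26 and 5.91 FPKM in DMSO and 8.93, 8.72 and 9.03 FPKM in PD. It was higher in every PD library, with a 1.48-fold ratio of means and a log2 fold change of 0.50 (SE 0.05, limma adjusted p = 8.4e-05). NTN4 (ENSG00000074527, chr12:95657807-95791189), a netrin of basement membranes that binds laminins, had 9.64, 9.79 and 9.84 FPKM in DMSO and 4.50, 4.56 and 4.81 FPKM in PD. It was 2.11-fold lower in mean FPKM, with means of 9.76 ± 0.101 and 4.63 ± 0.165 FPKM (SD, n = 3 each) and a log2 fold change of -0.94 (SE 0.04, limma adjusted p = 6.1e-06). With upper quartile scaling, a pseudocount of 0.1 or voom (-1.08), NTN4 passed 2-fold and was a downregulated DEG.

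NTN4 made up 53.2% of summed netrin FPKM in DMSO and 29.9% in PD, and NTN1 made up 32.6% and 57.6%, while the sum was 18.4 ± 0.235 FPKM in DMSO and 15.5 ± 0.723 FPKM in PD. The NTN1 to NTN4 ratio, chosen after the values were seen, was 0.614 ± 0.022 and 1.92 ± 0.054 (SD, n = 3 each, exact permutation p = 0.10). NTN3 had 2.80, 2.10 and 2.88 FPKM in DMSO and 1.53, 1.78 and 2.44 FPKM in PD. The NTN3 groups overlapped, and its log2 fold change of -0.31 had an adjusted p of 0.092 (limma). The adjusted p became 0.043 in voom, 0.043 without DMSO replicate 2 and 0.026 without PD replicate 3. In the other direction, limma gave 0.21 without DMSO replicate 1 and 0.21 with no filter on low FPKM. NTN5 had 0 to 3 fragments per library.

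ROBO1 (ENSG00000169855, chr3:78597239-79767998), a receptor for SLITs, had 5.51, 5.00 and 5.48 FPKM in DMSO and 5.80, 5.98 and 6.03 FPKM in PD. Its PD libraries were all above its DMSO libraries by a small margin. The log2 fold change was 0.13 (95% interval 0.01 to 0.26), with an adjusted p of 0.064 (limma), and 0.027 in voom. With upper quartile scaling the change was 0.06 (95% interval -0.07 to 0.19, limma adjusted p = 0.38). Without DMSO replicate 2 it was 0.09 (limma adjusted p = 0.19), so the small rise depended on scaling and on single libraries. The 4 ROBOs and 3 SLITs together had 5.83 ± 0.369 FPKM in DMSO and 6.77 ± 0.203 FPKM in PD (SD, n = 3 each), of which ROBO1 was 91.6% and 87.7%.

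ROBO3, a divergent ROBO receptor, had 30, 11 and 12 fragments in DMSO and 46, 60 and 37 in PD. DMSO replicate 1 stood apart from the other DMSO libraries but below all PD libraries. In voom its log2 fold change was 1.51 (95% interval 0.84 to 2.18, adjusted p = 0.00038), and 1.95 without DMSO replicate 1. ROBO4, an endothelial receptor 2.22 kb from ROBO3 on the opposite strand, had 1 fragment in all 6 libraries together. SLIT2 had 25, 28 and 18 fragments in DMSO and 49, 65 and 38 in PD, and voom gave 1.06 (95% interval 0.50 to 1.61, adjusted p = 0.0016). Without DMSO replicate 3 or without PD replicate 2 the SLIT2 change was 0.87, under 2-fold, with adjusted p-values of 0.011 and 0.012. SLIT1 had 36, 22 and 32 fragments in DMSO and 33, 25 and 10 in PD and was not called by voom (-0.53, adjusted p = 0.18), and without PD replicate 3, its lowest library, the value was -0.09.

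Of the 21 guidance genes under the minimum, 10 had enough fragments for voom, which took genes with at least 10 fragments in 3 or more libraries. SEMA3G, ROBO3 and SLIT2 were upregulated DEGs and PLXNC1 was a downregulated DEG, where 16.1% and 13.2% of the 1638 genes that voom alone tested were. NRP2, PLXNB3, SEMA4G, SEMA6A, SEMA6D and SLIT1 were not called. SEMA3G, a secreted class 3 semaphorin, had 4, 14 and 13 fragments in DMSO and 42, 40 and 50 in PD, with no overlap, and a log2 fold change of 2.19 (95% interval 1.41 to 2.96, adjusted p = 3.1e-05). It passed the voom minimum only through its PD libraries, so that its place among the tested genes depended on the difference itself. Without DMSO replicate 1, its lowest library, the value was 1.63. The log2 fold changes of PLXNB3 (-0.14), SEMA4G (-0.05), SEMA6A (-0.03) and SEMA6D (-0.13) had intervals that held 0, with bounds between -0.62 and 0.47. PLXNB3 shares 1432 exonic bases with SRPK3 on the same strand and SEMA4G shares 1215 with MRPL43 on the opposite strand, and both are uncertain for that reason.

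The other 11 genes under the minimum had at most 10 fragments in any library. SEMA6B had 2 to 10 fragments, SEMA3A 0 to 8, SEMA4A and ROBO2 0 to 5, and SEMA3D and SLIT3 0 or 1, and SEMA3E, UNC5A, UNC5C, NTN5 and ROBO4 are given above. At this depth, 3 fragments in the shallowest library would be worth 0.011 FPKM for ROBO2 and 0.059 FPKM for NTN5. Lower values in that library rest on fewer fragments than that. Over all 21 genes, ROBO3, SLIT2 and SEMA3G had every PD library above every DMSO library (5.77% of all untested genes did), and PLXNC1 and UNC5C had every PD library below (8.52%), on the FPKM scale. In fragments, UNC5C had 4, 4 and 3 in DMSO and 2, 3 and 0 in PD, which overlap at 3. Among the 22 tested genes, 12 had every PD library above (35.6% of all tested genes) and 3 had every PD library below (29.9%).

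**Figure D4:**
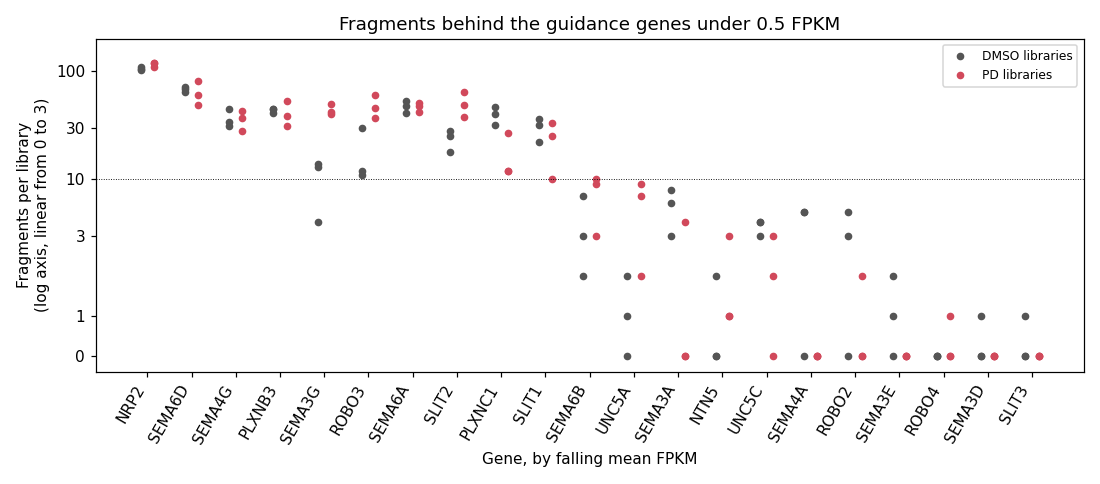
Fragments per library behind the 21 guidance genes under 0.5 FPKM, DMSO in grey and PD in red, on a log axis that is linear from 0 to 3, with a dotted line at 10 fragments. SEMA3G, ROBO3 and SLIT2 are higher and PLXNC1 is lower in all PD libraries, and the 11 genes on the right have at most 10 fragments.

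**Figure D5:**
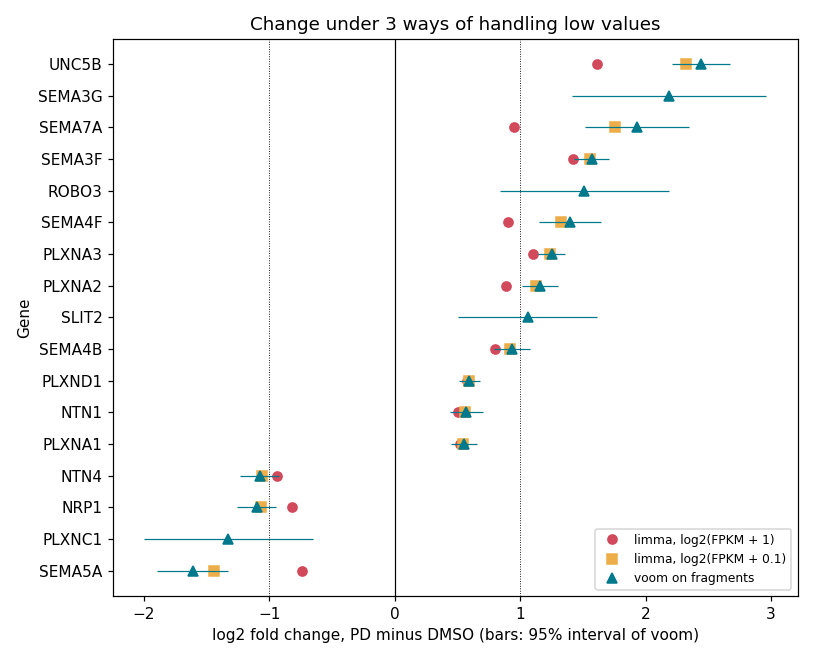
Log2 fold change, PD minus DMSO, of the 13 guidance genes past the adjusted p in limma and the 4 that voom alone called as DEGs. Settings are a pseudocount of 1, a pseudocount of 0.1 and voom on fragments (bars are its 95% intervals). Those 4 genes were under the FPKM minimum and have only a voom value. The 3 values nearly coincide for PLXND1, NTN1 and PLXNA1 and are far apart for SEMA7A (0.95, 1.75 and 1.93), UNC5B (1.62, 2.32 and 2.44) and SEMA5A (-0.74, -1.44 and -1.61).

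Genes that act with these receptors were taken from a list of 61 co-receptors, alternative ligands and intracellular partners, of which 54 had values and DCC was among the 7 not analysed here. Of the 42 that reached the minimum, 18 were higher and 11 lower in PD at the adjusted p (limma), where 31.9% and 26.2% of all tested genes were. MICAL2 was the 1 upregulated DEG, where 2.04% of all tested genes were, so that the partners were called about as often as other genes in the lower and DEG calls. Their share of higher calls (18 of 42) lay above the 31.9% of all tested genes, as that of the guidance genes did. The list was not tested as a whole. No partner was a downregulated DEG in limma (1.57% of all tested genes) or voom (4.79%). At an unadjusted p under 0.05, 13 were lower and 18 higher, against 28.9% and 33.8% of all tested genes. The median log2 fold change of the 42 was 0.06. MICAL2, an enzyme of the MICAL family that oxidises actin, had 0.751, 0.577 and 0.651 FPKM in DMSO and 2.23, 2.33 and 2.51 FPKM in PD, and all PD libraries were higher. Its log2 fold change was 1.02 (SE 0.08, limma adjusted p = 4.4e-05), and it was under 2-fold without DMSO replicate 2, without PD replicate 3 and with upper quartile scaling (0.97). An antisense lncRNA overlaps 500 of its exonic bases.

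NEO1 encodes neogenin, the other netrin receptor beside DCC. NEO1 had 4.64, 4.78 and 4.93 FPKM in DMSO and 8.88, 9.38 and 9.27 FPKM in PD, with no overlap, and a log2 fold change of 0.82 (SE 0.05, limma adjusted p = 1.1e-05). The UNC5B to NEO1 ratio, chosen after the values were seen, was 0.181 ± 0.007 in DMSO and 0.514 ± 0.010 in PD (SD, n = 3 each, exact permutation p = 0.10). With a pseudocount of 0.1 (4.85% of all tested genes) or with voom (6.71%), 3 partners were upregulated DEGs, a share near that of all genes, namely MICAL2, the kinase PAK1 and RND1, a small GTPase that binds plexins. RRAS, a Ras-family GTPase on which plexins act, rose by 0.82, and the collapsin response mediator DPYSL2 rose by 0.63 on the log2 scale (limma). MET, a receptor kinase related to plexins (-0.50), the exchange factor TRIO (-0.44), and the GTPases CDC42 (-0.28) and RAC1 (-0.22) were lower at the adjusted p. The choice of PAK1, RND1, RRAS, DPYSL2, MET, TRIO, CDC42 and RAC1 as examples was made after seeing their values.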

How the data were processed

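RNA-seq of cells labelled HepG2 treated for 24 h with PD or DMSO (3 libraries each) was used. The authors selected poly(A) RNA, prepared libraries with a kit that does not mark strand, and deposited FPKM. The submitters' processing notes name hg38, HISAT2 and HTSeq 0.6.0, and the strand setting of the counting is not given in the sources used here. The authors used DESeq2 for their own tests, and it was not used here.

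Ensembl identifiers were matched to GENCODE release 44 (28161 of 28563 genes have a symbol). Genes averaging 0.5 FPKM or more were tested with limma 3.58.1 in R 4.3.3 on log2(FPKM + 1) with an intensity-dependent prior variance, PD against DMSO without covariates, and p-values were adjusted over all 14400 tested genes. DEGs were called at the thresholds of the study, 2-fold and an adjusted p no higher than 0.05. The 2-fold was taken on log2(FPKM + 1) and not from DESeq2, so the counts of DEGs are not comparable with those of the study. Fold changes on this scale are understated for low genes. FPKM are whole multiples of what 1 fragment is worth, and fragments were worked back for all 28563 genes. The GENCODE exon length gave whole fragments for 13420 genes (tolerance 0.01) and a length found from the values did so for the others (tolerance 0.002). The fragments summed to 99.75% to 99.76% of the library totals, and 13428 to 13834 genes per library had under 10. No libraries in a group were duplicates, since a chi-square comparison of fragments gave 2.33 to 3.80 per gene for libraries of the same group, and 52.2 to 60.9 for a PD with a DMSO library.

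Alternatives were a pseudocount of 0.1, no filter, a minimum of 1 FPKM, the replicate number as a block, median-of-ratios and upper quartile scaling, voom on fragments, and leaving out each library. Voom with each library left out was added for low genes after seeing the data. Exact permutation tests were two-sided (scipy 1.17.1). The ratios were chosen after the values were seen, so their p-values add no support to the changes of the genes. The guidance genes, the partner list and the marker lists were chosen with earlier results of these data known, and some listed genes are not reported here. Values in every library are given for DEGs and, in each family, for the most abundant tested gene and the largest rise and fall, and further genes were added after their values were seen.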

Additional observations from a re-analysis of the deposited data

How the results depend on the processing

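The 13 guidance genes called by limma kept their direction and stayed past the adjusted p in all alternatives that tested them, and calls depended mainly on how low values were treated. The number of all DEGs was 520, with 1248 at a pseudocount of 0.1, 1735 in voom and 511 to 561 when each library was left out. Upregulated guidance genes numbered 3, with 6 and 9 in those alternatives and 3 to 4 when each library was left out. Downregulated ones numbered 0, with 3 at a pseudocount of 0.1, 4 in voom, 1 (NTN4) under upper quartile scaling and 0 to 0 when each library was left out. Genes higher at the adjusted p stayed at 10 to 10 and lower ones at 3 to 4 with each library left out, and voom gave 6 lower. The additional lower ones in voom were NTN3 and PLXNB1, which limma tested and did not call, and PLXNC1, which was under the FPKM minimum. Partner DEGs numbered 1, with 3 at a pseudocount of 0.1, 3 in voom, 0 under upper quartile scaling and 0 to 1 with each library left out. The median of the tested guidance genes was 0.15, with 0.26 at a pseudocount of 0.1, 0.0038 without a filter (43 genes), 0.50 with a minimum of 1 FPKM (19 genes), 0.11 under upper quartile scaling and 0.12 to 0.20 with each library left out. Upper quartile scaling also turned the split of all DEGs from 294 up and 226 down to 223 up and 270 down, and that at the adjusted p from 4588 and 3780 to 3798 and 4675, and the cause was not tested.

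Signs changed for genes near 0. SEMA3B was -0.010 under upper quartile scaling. With each library left out, SEMA3C ranged from -0.066 to 0.033, positive without DMSO replicate 1 or PD replicate 3, and PLXNB2 ranged from -0.035 to 0.038, positive without DMSO replicate 3 or PD replicate 1. In voom, PLXNB3 was 0.055 without PD replicate 2, SEMA4G 0.10 without DMSO replicate 3 and 0.13 without PD replicate 2, and SEMA6A 0.067 without DMSO replicate 2 and 0.061 without PD replicate 2.

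Libraries with the same replicate number shared only a number, since their deviations correlated at -0.03, -0.005 and 0.09. With the replicate number as a block, 518 DEGs were called, with 3 guidance genes upregulated, 0 downregulated, 10 higher and 3 lower at the adjusted p. Genes under 10 fragments could not be assessed at this depth.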
